A study of Rattus norvegicus with 10 samples.

Results

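The genes described here are 9 that encode the contractile apparatus of smooth muscle: Tagln, Cnn1, Tpm1, Tpm2, Myl9, Csrp1, Smtn, Cald1 and Mylk, of 14217 genes that a probe set named alone. Every probe set of the rat array whose platform annotation named 1 gene, and that gene among the 9, was taken, which gave 20 of the 31099 probe sets on the array. Tpm1 had 7 probe sets, Cald1 had 3, Tpm2, Smtn and Mylk had 2 each, and Tagln, Cnn1, Myl9 and Csrp1 had 1 each. Expression was measured in A7r5, a line of smooth muscle cells from the aorta of rat embryos, kept in normoxia at about 50% confluence in 10% serum. The cells had been stably transfected with a construct of BMPR2, which encodes a receptor for bone morphogenetic proteins (BMPs) and is mutated in heritable pulmonary arterial hypertension, or with the empty vector. The design asked how receptor mutations of 3 classes altered gene expression in vascular smooth muscle.

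The 5 groups had 2 arrays each. The KD mutant carried C994T in the kinase domain, the CD mutant 2579-2580delT in the cytoplasmic tail, and the ED mutant T354G in the extracellular domain, as the labels write them without saying from where positions are counted. The remaining groups were transfected with wild-type human BMPR2 or with the empty vector. For the empty vector pair the labels differ among themselves: their titles call the expression native, while the transfection field and description name the empty vector, which was followed here. The labels name no change in the rat line's own Bmpr2 in any group, and they give neither the promoter of the constructs nor the number of clones behind each line. Nothing in them states whether both arrays of a pair were separate cultures, and the spread behind the p-values may therefore be technical.

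Smooth muscle contracts when calcium-bound calmodulin activates myosin light chain kinase, which phosphorylates the regulatory light chain of myosin and lets its heads pull on actin. Tropomyosins, calponin, caldesmon and transgelin sit along the thin filaments and tune that step. Many genes of the apparatus are switched on by serum response factor (SRF), which binds a short DNA element called the CArG box together with the coactivators myocardin or MRTF, and BMP signalling is known to favour this contractile programme in vascular smooth muscle.

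The values are log2 signals as the authors deposited them, so 1 unit is a doubling of signal, and levels of different probe sets are not comparable with each other. Across the whole transcriptome the pair labelled KD mutant differed from the remaining arrays. Their Pearson correlation with the other 8 was 0.709 to 0.719 across probe sets, against 0.992 to 0.996 among the 8 and 0.992 between the KD mutant pair. In KD mutant minus wild type, 89.6% of all tested probe sets passed the test, 34.5% higher and 55.1% lower, with a median difference of -0.56. Of 11 epithelial markers, 6 averaged at or above the level of the filter on dim probe sets (log2 4.82) on the KD mutant arrays and 9 did in each other group, and the summed log2 level of the list was 63.9 to 64.1 on the KD mutant arrays and 75.1 to 77.7 on the others. Of 10 fibroblast markers, 6 reached that level on the KD mutant arrays and 4 or 5 in each other group, with sums of 72.2 to 72.9 on the KD mutant arrays and 46.9 to 49.0 on the others. Neither list moved as a whole. In KD mutant minus wild type, 5 of 8 tested fibroblast markers rose and 3 fell, and 1 of 9 tested epithelial markers rose and 8 fell. Col1a2 and Postn lay below the filter level on the other arrays and had to rise. Without them 3 of 6 fibroblast markers rose. Of 9 defining markers of smooth muscle, 7 reached it on the KD mutant arrays and 5 in each other group. Lmod1 and Myocd averaged below it in all 5 groups, and Cnn1 and Actg2 in the 4 groups other than the KD mutant, although the labels call all cells vascular smooth muscle. Of 7 hepatocyte markers, 2 reached it on the KD mutant arrays and 5 in each other group, with sums of 28.7 to 28.8 on the KD mutant arrays and 38.8 to 43.0 on the others. Sums of 3 further lists were lower on the KD mutant arrays too. They were 36.3 to 36.5 against 39.7 to 41.2 for leukocyte and 56.5 to 58.5 against 61.7 to 63.1 for striated muscle markers. For endothelial markers, of which 0 or 1 of 7 reached the filter level in any group, they were 22.6 to 23.6 against 27.9 to 29.7. Array medians were lower too, 4.94 to 4.95 on the KD mutant arrays against 5.32 to 5.36, and no sum is corrected for that. Of 5 tested leukocyte markers 1 rose and 4 fell, and of 8 striated muscle markers 2 rose and 6 fell. Without Myl4, which had to rise, 1 of 7 striated muscle markers rose. Of all genes 36% rose and 52.9% fell. The part of these differences in the values below was not tested, and the construct and the transfected cells that carry it cannot be told apart.

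Of the 20 probe sets, 12 were higher on both KD mutant arrays than on each of the other 8, 7 were lower, and 1 overlapped. Over the whole array 27.3% of probe sets lay above and 59.9% below in this sense. By the brightest probe set of each gene, Tagln, Cnn1, Tpm2, Myl9, Csrp1 and Cald1 rose in KD mutant minus wild type, and Tpm1, Smtn and Mylk fell. The other 8 arrays lay close together for these genes: the range of a member probe set over those 8 had a median of 0.383, against 0.380 over all probe sets.

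**Figure D1:**
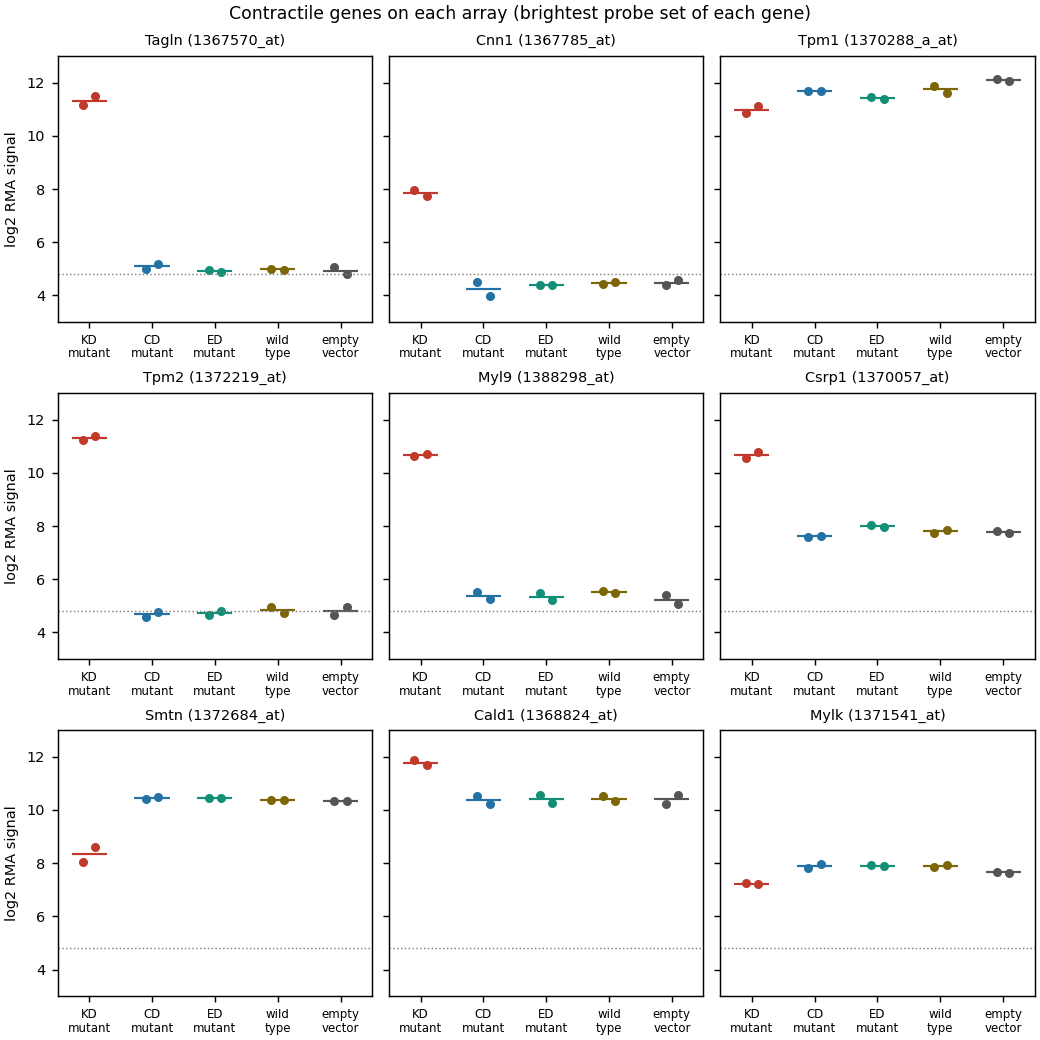
Log2 signal of the brightest probe set of each of the 9 genes on the 10 arrays, with groups on the x axis, 1 point per array and a horizontal bar at each group mean; the dotted line marks the filter level of 4.82. The KD mutant points lie far above the rest for Tagln, Cnn1, Tpm2, Myl9 and Csrp1, above them for Cald1, and below them for Tpm1, Smtn and Mylk.

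For the promoters, windows of 300 bases were read from RefSeq (rat build GRCr8), from 250 bases before to 50 after the start of each gene, and 7 of the 9 members had 1 or more; Tagln and Myl9 had none in the table. The windows of 2 genes that rose on the KD mutant arrays (Cnn1 and Tpm2) and of 2 that fell (Smtn and Mylk) are shown 5′ to 3′ on the strand of the gene. Capitals mark the motifs that were found: GGCGCC, a GC-rich element known from BMP-responsive promoters, in Tpm2 and Smtn, and CATTCC, the MCAT element bound by TEAD factors, in Mylk.
Cnn1, chr8:28908187-28908486, plus strand: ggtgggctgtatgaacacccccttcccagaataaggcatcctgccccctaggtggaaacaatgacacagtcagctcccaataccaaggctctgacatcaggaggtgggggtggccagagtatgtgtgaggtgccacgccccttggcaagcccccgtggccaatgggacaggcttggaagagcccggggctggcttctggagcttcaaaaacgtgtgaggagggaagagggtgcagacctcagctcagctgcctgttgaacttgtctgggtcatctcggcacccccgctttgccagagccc
Tpm2, chr5:62575677-62575976, minus strand: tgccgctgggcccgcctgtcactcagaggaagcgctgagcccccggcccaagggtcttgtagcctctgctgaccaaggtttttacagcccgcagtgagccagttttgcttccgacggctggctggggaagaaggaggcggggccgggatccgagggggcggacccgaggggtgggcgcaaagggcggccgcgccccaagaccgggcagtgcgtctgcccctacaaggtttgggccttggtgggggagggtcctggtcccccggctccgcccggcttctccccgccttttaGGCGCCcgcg
Smtn, chr14:82644465-82644764, minus strand: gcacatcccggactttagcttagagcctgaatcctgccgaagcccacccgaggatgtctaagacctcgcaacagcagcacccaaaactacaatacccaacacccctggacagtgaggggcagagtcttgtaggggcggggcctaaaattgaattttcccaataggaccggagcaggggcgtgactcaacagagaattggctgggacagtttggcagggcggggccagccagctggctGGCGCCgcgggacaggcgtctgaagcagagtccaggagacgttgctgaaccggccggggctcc
Mylk, chr11:79498525-79498824, minus strand: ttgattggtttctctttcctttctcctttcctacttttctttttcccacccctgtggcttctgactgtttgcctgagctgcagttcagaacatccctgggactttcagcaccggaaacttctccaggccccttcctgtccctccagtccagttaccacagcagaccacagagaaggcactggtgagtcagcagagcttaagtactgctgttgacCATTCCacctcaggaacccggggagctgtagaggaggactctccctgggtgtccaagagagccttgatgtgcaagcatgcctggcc

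Both strands were searched, and the motifs did not overlap in these windows. The CArG box (CC, then any 6 letters of A or T, then GG) was in 0 of the 8 member windows and in 1.64% of the 33469 windows of the table. GGCGCC was in 11% of all windows and lay on both sides of the split, in Tpm2, which was higher on the KD mutant arrays, and in Smtn, which was lower. CATTCC or its reverse complement was in 14.2% of all windows, and among members in Mylk, Tpm1 and 1 of the 2 windows of Cald1. TATAAA, the core of the TATA box, was also in 14.2% of all windows and in the other Cald1 window. These matches describe the letters in the windows and nothing about binding.

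Transgelin and calponin are actin-binding proteins whose genes serve as early and mid-stage markers of smooth muscle differentiation. Tagln stood at 11.15 and 11.51 on the KD mutant arrays, against 5.0 and 5.19 with the CD mutant, 4.94 and 4.87 with the ED mutant, 4.99 and 4.96 with wild type and 5.06 and 4.82 with empty vector. Both KD mutant arrays lay far above all others, and the other 8 ran from 4.82 to 5.19, close to the filter level. The difference, KD mutant minus wild type, was 6.35 (SE 0.135, the moderated standard error, 81.7-fold, adjusted p = 2.38e-12 in limma).

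Cnn1 stood at 7.97 and 7.76 on the KD mutant arrays, against 4.49 and 3.98 with the CD mutant, 4.37 and 4.39 with the ED mutant, 4.42 and 4.51 with wild type and 4.39 and 4.57 with empty vector. All 8 other arrays were below the filter level of 4.82, so Cnn1 entered the test through the KD mutant arrays alone and had to differ. Its fitted difference from wild type of 3.40 (SE 0.155) depends on a level that was not measured exactly.

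Tropomyosins are coiled-coil dimers that lie in the groove of the actin filament and control the access of myosin. The brighter probe set of Tpm2, the beta-tropomyosin gene, stood at 11.24 and 11.37 on the KD mutant arrays, against 4.59 and 4.77 with the CD mutant, 4.66 and 4.81 with the ED mutant, 4.95 and 4.73 with wild type and 4.65 and 4.96 with empty vector. Groups did not overlap between the KD mutant and the rest, and the difference from wild type, 6.47 (SE 0.134, 88.7-fold, adjusted p = 1.98e-12 in limma), was the largest of the 20 probe sets. As the other arrays lay about the filter level, the exact size of this difference, and of that of Tagln, was not measured.

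The dimmer Tpm2 probe set (1392976_at) went the opposite way. It read 4.71 and 4.50 on the KD mutant arrays, against 5.97 and 5.99 with the CD mutant, 6.02 and 6.01 with the ED mutant, 6.03 and 5.99 with wild type and 6.12 and 5.96 with empty vector. It was lower on both KD mutant arrays than on all others and fell by 1.40 against wild type (SE 0.108, adjusted p = 1.09e-07 in limma). The probe sets of Tpm2 therefore gave both directions for 1 gene on the same arrays, and which part of the transcript each one reads is not used here.

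Tpm1, the alpha-tropomyosin gene with many splice forms, was also mixed. Its brightest probe set (1370288_a_at) read 10.84 and 11.11 on the KD mutant arrays, against 11.69 and 11.67 with the CD mutant, 11.46 and 11.40 with the ED mutant, 11.89 and 11.63 with wild type and 12.15 and 12.08 with empty vector. The KD mutant arrays were the lowest and the empty vector arrays the highest. It fell by 0.78 against wild type (SE 0.122, adjusted p = 6.11e-05 in limma), which is close to the median of -0.56 over all tested probe sets.

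The other 4 tested Tpm1 probe sets rose. The largest of these differences was 3.62 (SE 0.336) for 1395794_at, whose 2 KD mutant arrays also lay farthest apart, at 9.25 and 7.84 against 4.41 to 5.25 on the other 8. The probe set 1370287_a_at read 11.18 and 11.62 on the KD mutant arrays against 8.26 to 8.64 on the others, a difference from wild type of 2.89 (SE 0.140).

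The KD mutant arrays lay above all others for both, and also for 1368724_a_at, which differed by 1.76 (SE 0.138). The last, 1371241_x_at, differed by 0.82 (SE 0.113) on the deposited scale, and after quantile normalization by 0.23 (adjusted p = 0.0633 in limma), where it no longer passed. Of the 2 probe sets that failed the filter, 1370513_at read 5.03 and 4.43 on the KD mutant arrays against 3.07 to 3.36 on the others, and 1371240_at read 3.36 and 3.11 against 3.28 to 3.67, the only 1 of the 20 whose KD mutant arrays overlapped the rest. The suffixes _a_at and _x_at mark probe sets that Affymetrix designed to match several transcripts or to carry probes shared with other sequences, and the tropomyosin genes are close relatives, so their readings are uncertain as to gene and splice form. Tpm3, a close relative outside the 9 genes, was split in the same comparison, with 3 probe sets higher and 8 lower of 11 tested.

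**Figure D2:**
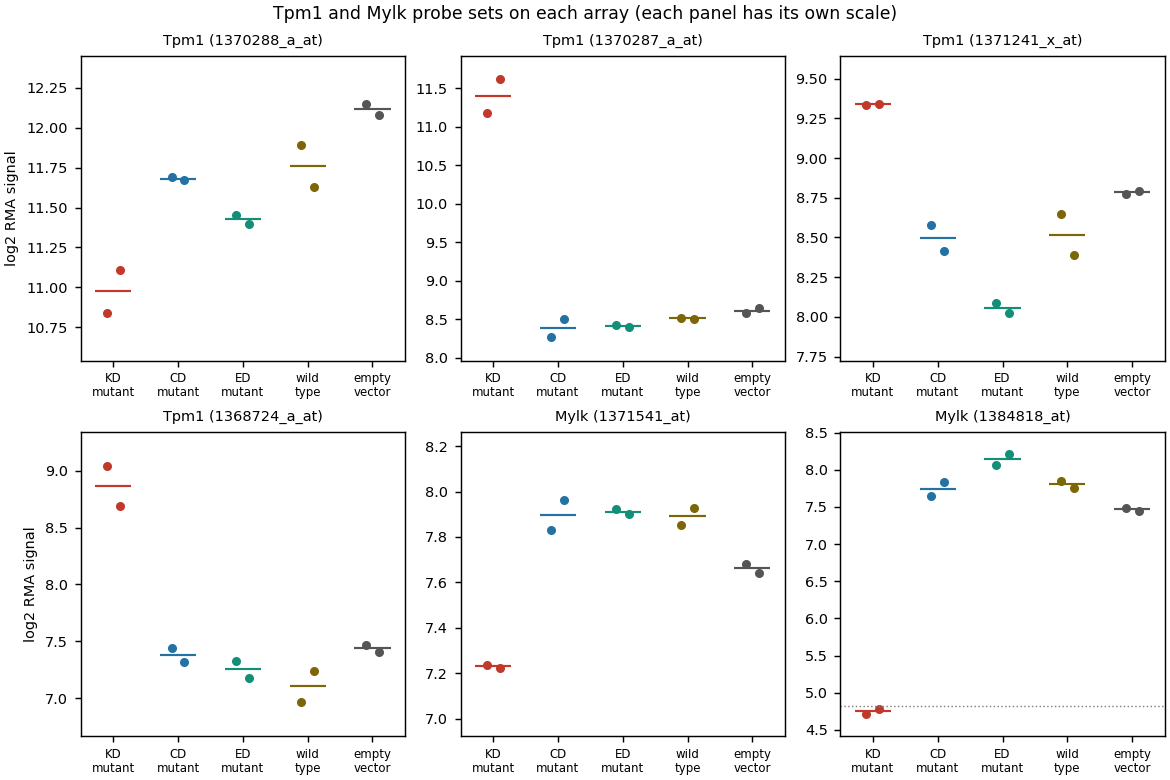
Log2 signal on each array of the 4 brightest Tpm1 probe sets and both Mylk probe sets, with 1 point per array, a bar at each group mean, a separate y axis for each panel, and a dotted line at the filter level of 4.82 where it is in range. On the KD mutant arrays Tpm1 1370288_a_at is lowest while the other 3 Tpm1 probe sets are highest; among the rest, the ED mutant arrays are lowest for Tpm1 1371241_x_at and highest for Mylk 1384818_at.

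Myl9 encodes the regulatory light chain of smooth muscle myosin, the protein whose phosphorylation triggers contraction. Its signal was 10.63 and 10.72 on the KD mutant arrays, against 5.51 and 5.27 with the CD mutant, 5.47 and 5.24 with the ED mutant, 5.55 and 5.49 with wild type and 5.40 and 5.07 with empty vector. Both KD mutant arrays lay above all others, which ran from 5.07 to 5.55. The difference from wild type was 5.15 (SE 0.137, 35.5-fold, adjusted p = 1.17e-11 in limma).

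Mylk encodes the kinase that phosphorylates that light chain, and it went the other way. Its brighter probe set (1371541_at) read 7.24 and 7.22 on the KD mutant arrays, against 7.83 and 7.96 with the CD mutant, 7.92 and 7.90 with the ED mutant, 7.85 and 7.93 with wild type and 7.68 and 7.64 with empty vector. The KD mutant arrays were the lowest, 0.66 below wild type (SE 0.0979, adjusted p = 3.93e-05 in limma), again close to the median over all probe sets. The second probe set (1384818_at) read 4.71 and 4.78 on the KD mutant arrays and 7.45 to 8.21 on the others, and fell by 3.06 (SE 0.107, adjusted p = 1.07e-10 in limma), to just under the filter level.

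Caldesmon, encoded by Cald1, binds actin, tropomyosin and calmodulin and holds back the myosin ATPase. Its brightest probe set (1368824_at) read 11.86 and 11.68 on the KD mutant arrays, against 10.54 and 10.22 with the CD mutant, 10.57 and 10.25 with the ED mutant, 10.52 and 10.33 with wild type and 10.24 and 10.56 with empty vector. Bright on every array, it rose by 1.35 in the KD mutant against wild type (SE 0.157, adjusted p = 4.49e-06 in limma). A second probe set (1371969_at) read 11.88 and 11.89 on the KD mutant arrays against 7.60 to 7.95 on the others, and its difference from wild type was 4.21 (SE 0.0953), so the size of the rise depended on the probe set. The third (1368823_at), which failed the filter, read 3.47 and 3.15 on the KD mutant arrays against 4.30 to 4.82 on the others.

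Smoothelin, the product of Smtn, is a cytoskeletal protein of fully contractile smooth muscle, and both of its probe sets fell. The brighter (1372684_at) read 8.05 and 8.62 on the KD mutant arrays, against 10.42 and 10.48 with the CD mutant, 10.47 and 10.46 with the ED mutant, 10.38 and 10.38 with wild type and 10.33 and 10.35 with empty vector. The other 8 arrays ran from 10.33 to 10.48, and the difference, KD mutant minus wild type, was -2.04 (SE 0.152, adjusted p = 8.34e-08 in limma). The dimmer one (1396885_at) gave a similar difference, -1.84 (SE 0.125).

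Csrp1 encodes a LIM-domain protein that binds alpha-actinin and bridges transcription factors of smooth muscle genes. It read 10.57 and 10.78 on the KD mutant arrays, against 7.61 and 7.63 with the CD mutant, 8.03 and 7.98 with the ED mutant, 7.75 and 7.86 with wild type and 7.80 and 7.75 with empty vector. The KD mutant arrays lay above all others by a difference from wild type of 2.87 (SE 0.105, adjusted p = 1.51e-10 in limma), and among the rest the ED mutant arrays were highest and the CD mutant arrays lowest.

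Of the 17 member probe sets that passed the filter, all 17 passed the test in KD mutant minus wild type, 11 higher and 6 lower. With 89.6% of all tested probe sets also passing, that count sets nothing apart about the members. Over the 17, which include Cnn1, the median difference was 1.76, against -0.56 over all tested probe sets, and the KD mutant mean lay 3 or more units above the mean of the other 8 arrays for 6 of the 20 probe sets and for 5.93% of all probe sets, and 3 or more below it for 1 of the 20 (Mylk 1384818_at) and for 0.351% of all. By brightest probe set, 6 of the 9 genes rose and 3 fell, where 88.8% of all genes passed, 36% higher and 52.9% lower. Among the 6 is Cnn1, which entered the test through the KD mutant arrays alone and had to rise. Without Cnn1, 5 of 8 rose. The 11 higher and 6 lower signs were the same after quantile normalization and after centring each array on its median, although those settings moved the median of all tested probe sets to -0.46 and -0.10. Since RNA was taken from whole cultures, a change in how many cells make a transcript and a change in how much each cell makes cannot be told apart.

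**Figure D3:**
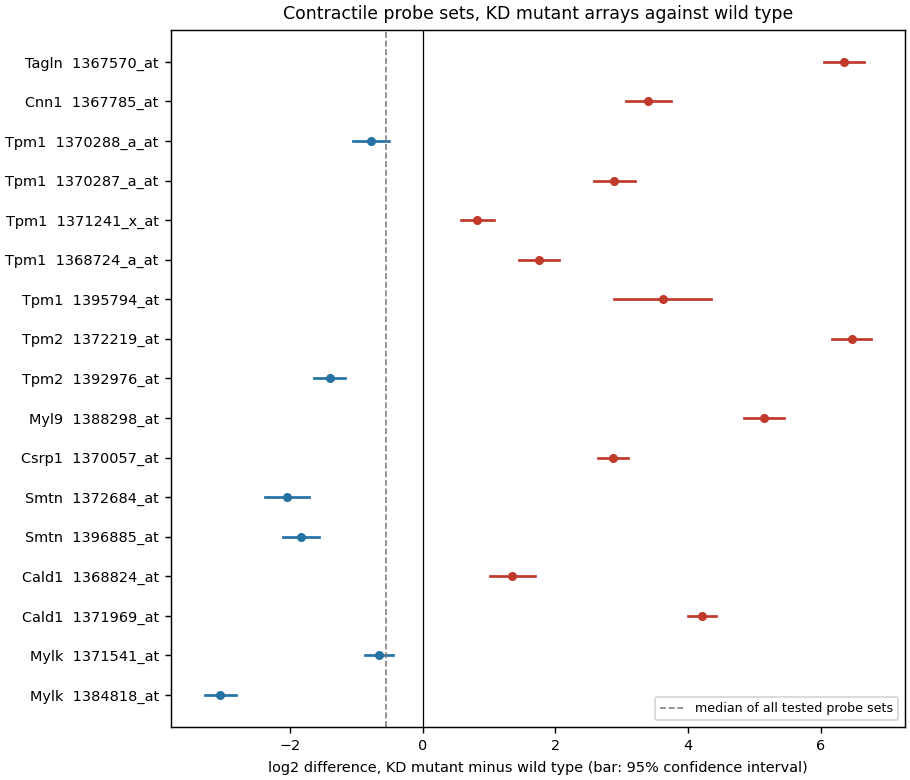
Log2 difference, KD mutant minus wild type, of the 17 tested member probe sets (x axis), with bars for the 95% confidence interval, red for higher and blue for lower; the dashed line marks the median of all tested probe sets at -0.56. The points run from -3.06 for Mylk 1384818_at to 6.47 for Tpm2 1372219_at, and 2 of the falls, Tpm1 1370288_a_at and Mylk 1371541_at, overlap the dashed line.

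Partners of the 9 genes in the filament system were read from a list of 24 further contractile and thin filament genes, each by its brightest probe set. Of the 20 that were tested, 15 rose, 1 fell and 4 did not pass in KD mutant minus wild type, where 36% of all genes rose and 52.9% fell, and the median difference was 2.16 against -0.42 over all genes. Nexn and Itga8 lay below the filter level on all 8 other arrays, so they entered the test through the KD mutant arrays and had to rise. Without these 2, 13 of 18 rose. Still among the 13 is Actg2, which reached that level on 1 wild type array (4.86) and on no other array without the KD mutant. As the filter asks for 2 arrays, Actg2 also passed it only through the KD mutant arrays, and its rise was built in. The 6 with the lowest adjusted p all rose: Fhl1, a LIM-domain protein of muscle, by 6.94 (SE 0.130), Actg2, the gamma actin of visceral smooth muscle, by 6.36 (SE 0.143), Tpm4, a cytoskeletal tropomyosin, by 5.03 (SE 0.0979), Nexn, an actin-binding protein, by 5.03 (SE 0.155), Cnn2, a calponin, by 4.26 (SE 0.105), and Tgfb1i1, a focal adhesion coactivator also called Hic-5, by 3.74 (SE 0.103). The other 8 arrays read 3.44 to 3.95 for Nexn and 4.52 to 4.86 for Actg2, so the sizes of those rises were not measured exactly.

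Acta2, the alpha actin that gives contractile smooth muscle its thin filaments, read 9.05 and 9.72 on the KD mutant arrays and 6.15 to 6.41 on the others, and rose by 3.07 (SE 0.174, adjusted p = 7.93e-09 in limma). Myh11, the smooth muscle myosin heavy chain, read 6.92 and 6.98 on the KD mutant arrays and 6.55 to 7.13 on the others. It did not pass the test (difference 0.17, SE 0.149, adjusted p = 0.284 in limma), and its sign turned with the scaling, to -0.23 after quantile normalization and 0.57 after centring. Its KD mutant arrays lay inside the range of the other 8. Acta1, the actin gene of skeletal muscle, fell by 2.23 (SE 0.158).

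The genes around the phosphorylation of myosin were mixed. Of 13 tested members of a list of 18, 7 rose and 4 fell, with a median difference of 0.26, but after quantile normalization 3 rose and 6 fell, and after centring 9 rose and 3 fell, so the list has no direction that holds under all scalings. Calm2, 1 of the calmodulin genes that activate the kinase, rose by 5.28 (SE 0.129). Ppp1r12c, a targeting subunit of myosin phosphatase, fell by 1.09 (SE 0.104), Rock1, the kinase that inhibits that phosphatase, fell by 1.10 (SE 0.128), and Arhgef12, a guanine nucleotide exchange factor, fell by 0.95 (SE 0.112). Dapk3, a kinase that can phosphorylate the light chain without calcium, was 0.67 higher (SE 0.0948) as deposited and 0.02 after quantile normalization (adjusted p = 0.806 in limma).

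Of 17 tested transcriptional regulators of smooth muscle genes in a list of 19, 5 rose and 10 fell, with a median of -0.92, where 36% of all genes rose and 52.9% fell with a median of -0.42. After quantile normalization 6 rose and 12 fell of 18, and after centring 7 rose and 9 fell. Srf fell by 0.50 by its brightest probe set (SE 0.10, adjusted p = 0.000496 in limma), close to the median over all probe sets. By that probe set Srf differed by -1.10 after quantile normalization (adjusted p = 5.23e-07 in limma) and by -0.10 after centring (adjusted p = 0.36 in limma). Its other 2 tested probe sets fell further, with differences of -1.41 (SE 0.0965) for 1374829_at and -1.25 (SE 0.109) for 1395378_at, and after centring they still passed, with -1.02 and -0.86 in the same order. Mrtfa, the SRF coactivator controlled by free actin, rose by 2.26 (SE 0.110), and so did Elk3, an Ets-family partner of SRF, by 5.39 (SE 0.194), and Prrx1, a mesenchymal homeobox factor, by 5.20 (SE 0.0963). On the other 8 arrays Elk3 read 4.67 to 5.14 and Prrx1 4.97 to 5.23. Both ranges lie close to the filter level, so the sizes of these 2 rises were not measured exactly. Mef2c, a MADS-box factor, was also called higher, but it read 3.68 to 4.43 on the other 8 arrays, below the filter level, and so had to differ. Its fitted difference of 5.01 (SE 0.172) is not an exact size. Without Mef2c, 4 of 16 tested regulators rose on the deposited values.

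Klf4, a zinc-finger repressor of contractile genes, fell by 2.77 (SE 0.101), and Gata6, a zinc-finger activator, fell by 2.74 (SE 0.122). Myocd, which encodes myocardin, failed the filter, with 4.61 and 4.75 on the KD mutant arrays and 4.08 to 4.50 on the others, all below the filter level. After rescaling it was tested, as 1 of the 18 regulators, and was counted among the rises. It differed by 0.85 after quantile normalization and 0.77 after centring (adjusted p = 0.000106 and 0.000247 in limma). As its deposited values were that dim, these sizes were not measured exactly.

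**Figure D4:**
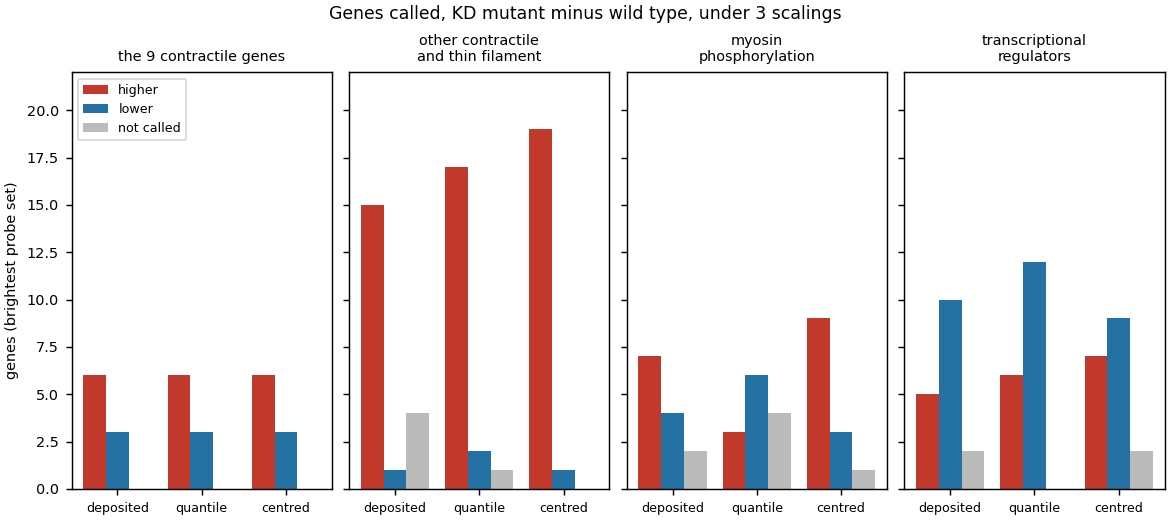
Number of genes, by brightest probe set, that were higher (red), lower (blue) or not called (grey) in KD mutant minus wild type at an adjusted p under 0.05, for the 9 contractile genes and 3 lists of partners, under the deposited, quantile-normalized and centred values. The 9 genes keep 6 higher and 3 lower under all 3 scalings, the other filament genes stay mostly higher, and the myosin phosphorylation list has more genes lower than higher under quantile normalization alone. Cnn1, which had to rise, is among the 6.

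The shape of the pattern over the 10 arrays was compared with that of all other named genes, as the root mean square difference of profiles centred on their own mean. Among 16665 probe sets, the nearest to Tpm2 were Anxa3 (0.122), Actg2 (0.126) and B2m (0.130), and the nearest to Tagln were Bmper (0.0956), Tgoln2 (0.114) and Col5a2 (0.123), in log2 units over 10 arrays. On the arrays without the KD mutant, Bmper averaged 2.71, Tgoln2 4.49 and Col5a2 3.96, all below the filter level. Genes that dim there could pass the filter only through the KD mutant arrays, so a gap was built in. Its size was not measured exactly. Of the genes nearest to Tpm2, Anxa3 (4.73) and Actg2 (4.66) also averaged below that level there, and B2m (5.18) above it. Tpm2 and Tagln lay 0.196 from each other, and Myl9 lay 0.447 from Tagln and 0.544 from Tpm2. This likeness describes the size of the gap between the KD mutant arrays and the rest, since all 10 arrays share it.

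Without the KD mutant, few members passed the test. In CD mutant minus wild type, 0 of 17 member probe sets passed the test in limma and 0 had an unadjusted p under 0.05, where 0% of all tested probe sets passed and 3.48% had an unadjusted p under 0.05. Their differences ran from -0.30 to 0.27, with 95% confidence bounds from -1.03 to 0.57. In ED mutant minus wild type 0 of 17 passed in limma, 3 had an unadjusted p under 0.05, and 0.164% of all tested probe sets passed, with 7.65% at an unadjusted p under 0.05; the differences ran from -0.46 to 0.33. In wild type minus empty vector 0 of 17 passed in limma, 6 had an unadjusted p under 0.05 (35.3%), and 0.0133% of all passed, with 6.54% at an unadjusted p under 0.05. Those 6 were probe sets of Tpm1, Mylk and Cald1 only, and by brightest probe set 2 of 9 genes were under 0.05. Probe sets of 1 gene are not independent, so the share of 17 is not a share of genes. The differences ran from -0.35 to 0.34.

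Between the mutants themselves, ED mutant minus CD mutant, 0 of 17 passed in limma, 3 had an unadjusted p under 0.05, and 0.351% of all tested probe sets passed, with 9.39% at an unadjusted p under 0.05. The differences ran from -0.44 to 0.40. In CD mutant minus empty vector 0 of 17 passed in limma, 4 had an unadjusted p under 0.05 (23.5%), and 0.111% of all passed, with 8.74% at an unadjusted p under 0.05. Those 4 were probe sets of Tpm1 and Mylk only, and by brightest probe set 2 of 9 genes were under 0.05. The differences ran from -0.43 to 0.27. The 95% confidence bounds reached 1.14 in ED mutant minus CD mutant, so for the least precise probe set a change of more than 1 unit could not be separated from the spread of 2 arrays a group. The median absolute difference of the members from empty vector was 0.159 with the CD mutant, 0.184 with the ED mutant and 0.142 with wild type, against 0.099, 0.108 and 0.0899 over all tested probe sets in the same order; these comparisons share the empty vector arrays.

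The ED mutant against empty vector was the one comparison without the KD mutant in which members passed. Here 3 of 17 passed, 1 higher and 2 lower, where 0.529% of all tested probe sets passed, 0.369% higher and 0.16% lower. At an unadjusted p under 0.05 there were 5 of 17 (29.4%), against 11.4% of all. Those 5 were probe sets of Tpm1, Mylk and Cald1 only. By brightest probe set 2 of 9 genes were under 0.05, and 1 passed the test, lower. The second Mylk probe set (1384818_at) read 8.06 and 8.21 with the ED mutant against 7.49 and 7.45 with empty vector. It rose by 0.67 (SE 0.107, adjusted p = 0.0197 in limma), and the ED mutant arrays were the highest of all 10. The brighter Mylk probe set read 7.92 and 7.90 with the ED mutant against 7.68 and 7.64 with empty vector, a difference of 0.25 that did not pass (adjusted p = 0.349 in limma).

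The other 2 were Tpm1 probe sets. The one named 1371241_x_at read 8.09 and 8.03 with the ED mutant against 8.77 and 8.80 with empty vector and fell by 0.73 (SE 0.113, adjusted p = 0.0175 in limma). The brightest, 1370288_a_at, read 11.46 and 11.40 with the ED mutant against 12.15 and 12.08 with empty vector and fell by 0.69 (SE 0.122, adjusted p = 0.0336 in limma). In both, the ED mutant arrays were the lowest of the 8 arrays without the KD mutant. None of these 3 calls held when any 1 of the 4 arrays was left out, with adjusted p from 0.0895 to 0.332 in limma.

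The same 3 probe sets differed by smaller amounts, in the same direction and without passing, with the other 2 constructs. For Mylk 1384818_at the differences from empty vector were 0.27 with the CD mutant and 0.34 with wild type, for Tpm1 1371241_x_at they were -0.29 and -0.27, and for Tpm1 1370288_a_at they were -0.43 and -0.35, in the same order. All 3 comparisons share the same 2 empty vector arrays, so their like signs are not independent. The ED mutant did not pass against wild type for any of the 3, with differences of 0.33, -0.46 and -0.33.

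The 11 tested probe sets of Tpm3 differed by -0.41 to 0.27 in ED mutant minus empty vector, and none passed (lowest adjusted p = 0.271 in limma). None of the 20 other filament genes passed in that comparison (1 with an unadjusted p under 0.05), nor any of the 13 genes of myosin phosphorylation (4 with an unadjusted p under 0.05), in limma. Of the 17 regulators 1 passed, Klf4, which was 0.84 higher (adjusted p = 0.00364 in limma), and 7 had an unadjusted p under 0.05. Among the markers of other cell types, 1 of 9 tested epithelial markers (Cdh1, by 1.01), 2 of 5 hepatocyte markers (Hpx by 1.37 and Fgb by 1.56) and 1 of 8 striated muscle markers (Acta1, by 2.18, adjusted p = 0.000273 in limma) rose with the ED mutant against empty vector. In these lists 4, 3 and 3 markers, in the same order, had an unadjusted p under 0.05 in limma, against 11.4% of all tested probe sets. None of 8 fibroblast, 5 leukocyte and 1 endothelial markers passed in limma, with 2, 1 and 0 at an unadjusted p under 0.05. The summed log2 level of the epithelial list was 77.7 on both ED mutant arrays and 75.3 and 75.5 on the empty vector arrays. That of the hepatocyte list was 41.9 and 43.0 on the ED mutant arrays and 38.8 and 39.5 on the empty vector arrays. Their part in the Mylk and Tpm1 values was not tested.

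**Figure D5:**
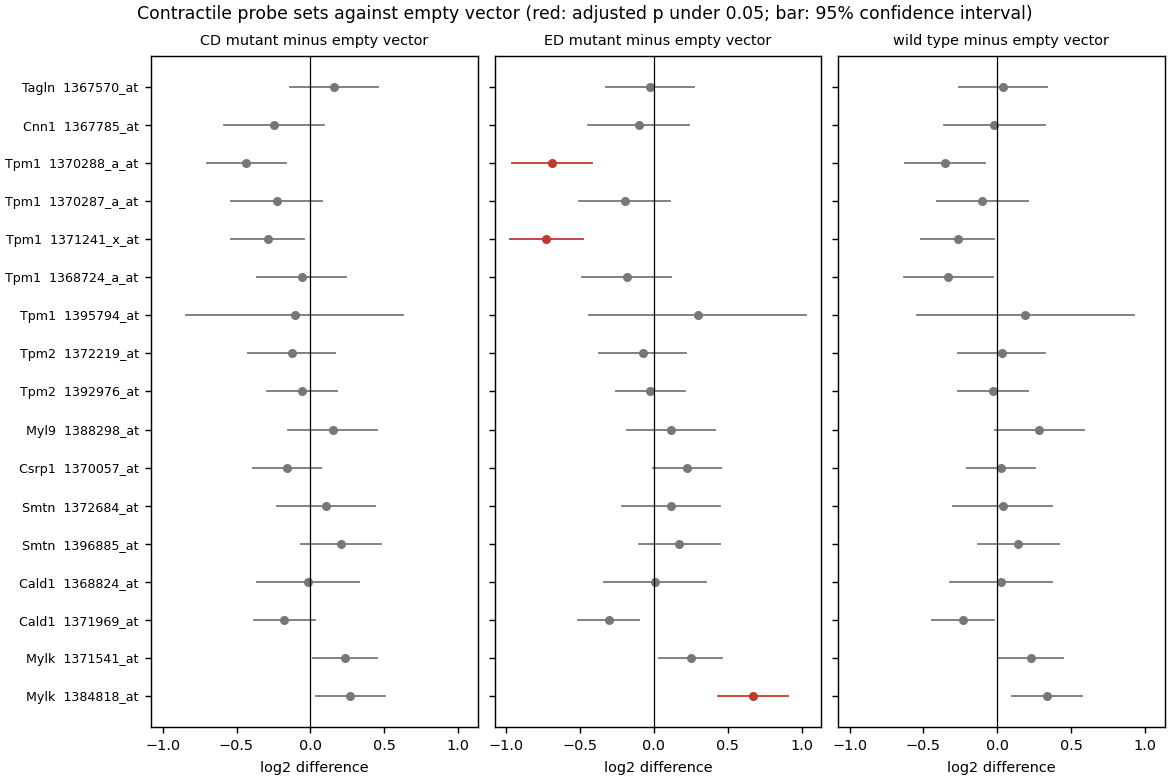
Log2 difference from empty vector (x axis) of the 17 tested member probe sets for the CD mutant, the ED mutant and wild type, with bars for the 95% confidence interval and red where the adjusted p was under 0.05. The 3 red points, all with the ED mutant, are Tpm1 1370288_a_at at -0.69, Tpm1 1371241_x_at at -0.73 and Mylk 1384818_at at 0.67.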

How the data were processed

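Total RNA of A7r5 cells was biotin-labelled and hybridised to Affymetrix rat arrays, 1 sample each. The authors deposited log2 values made with RMA, which corrects background, scales the arrays and summarises each probe set, per the submitters' processing notes. The sources used here do not give its version or say if the 10 arrays were scaled as 1 set. No detection calls were used.

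Symbols came from the platform annotation and were updated for 20758 probe sets through Entrez identifiers (RefSeq, GRCr8). The 57 control probe sets were left out. Probe sets at or above the 40th percentile of the table (log2 4.82) on 2 or more arrays were tested, 22502 in number. Limma 3.58.1 in R 4.3.3 fitted 5 group means over the 10 arrays (5 residual degrees of freedom, 11.4 after moderation). Contrasts were two-sided and adjusted by Benjamini-Hochberg over all tested probe sets, with a threshold of 0.05. The fit was tested on simulated data with a small share of changes planted in the ED mutant group alone, so that test does not cover the KD mutant comparison.

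All member probe sets are accounted for. From the partner lists, up to 6 genes with the lowest adjusted p are named, plus Acta2, Myh11, Srf and Myocd, and the genes nearest in pattern by root mean square difference. Of these, 1 gene of the myosin phosphorylation list is not reported here. Cdh1, Hpx, Fgb, Acta1, Itga8 and the Tpm3 and further Srf probe sets were added with their values in view. The members and lists were chosen with earlier results of these data known. The alternatives were other filters, scalings and variance models, a replicate block, 1 probe set per gene, fewer arrays, and leaving out each array.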

Additional observations from a re-analysis of the deposited data

How the results depend on the processing

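In KD mutant minus wild type, the same 17 member probe sets passed under every alternative run except 2. With 1 probe set per gene only 9 were tested, and 9 passed. Under quantile normalization 16 of the 17 passed and Tpm1 1371241_x_at did not (0.23, adjusted p = 0.0633 in limma). In ED mutant minus empty vector, 3 passed as deposited, 1 with 1 probe set per gene, and from 0 to 0 when each array was left out in turn, where the lone array of a group was assumed to vary like the rest. There Tpm1 1370288_a_at was also lost without the filter (adjusted p = 0.0506), and Mylk 1384818_at with only the 4 arrays compared (adjusted p = 0.0539).

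With an intensity trend and robust variance, 1 member passed instead of 0 in each of 3 comparisons: Tpm1 1371241_x_at in ED mutant minus wild type (-0.46, adjusted p = 0.0416) and in ED mutant minus CD mutant (-0.44, adjusted p = 0.0337), and Tpm1 1370288_a_at in CD mutant minus empty vector (-0.43, adjusted p = 0.0322). The labels number the arrays 1 and 2 in each group. Deviations of same-numbered arrays correlated at -0.03 to 0.14 over the 10 group pairs, 1 of them above 0.1, so the numbers were not taken to pair samples. With a replicate block, 17 members passed in KD mutant minus wild type and 2 in ED mutant minus empty vector, where Tpm1 1370288_a_at did not (adjusted p = 0.054). The causes of these changes were not tested. With 2 arrays a group and no detection calls, small differences and levels near the filter were not measured exactly.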
